A study of Mus musculus with 8 samples.

Results

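The RNA of 4 N2A tumors that had received vehicle alone, numbered 0 to 3 in the sample titles, is described here out of the 8 tumors of the series, without any comparison with treated tumors. They were chosen by 2 labels, vehicle in the title and mock as the treatment. N2A (Neuro-2a) is a mouse neuroblastoma line. Each tumor grew from 1000000 cells injected under the skin of the flank of an A/J mouse, the inbred strain in which the line forms syngeneic tumors, and the Methods give female mice bought at 4 weeks of age. Once a tumor could be felt, vehicle (physiological solution) was injected into the abdomen 2 times a day, and treatment went on for 8 days, at the end of which the mice were killed. Total RNA of the whole tumor mass was sequenced after removal of ribosomal RNA, without selection for poly(A) tails, so each library mixes tumor cells with the blood vessels, connective tissue and leukocytes of the host. The line is a subcutaneous graft rather than a tumor of the adrenal gland or the sympathetic ganglia, and the labels list each library as 1 tumor. The study's text has the sequencing done in duplicate while the labels list 4 vehicle tumors, and the labels do not say whether the 4 tumors come from separate mice, so the spread among them may be partly technical. With 1 group and no controls, values are levels and spreads among 4 tumors, and no test between groups was made.

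Neuroblastoma arises from neural crest cells on their way to becoming sympathetic neurons or chromaffin cells of the adrenal medulla. Such cells are held in a noradrenergic state by transcription factors such as PHOX2A, HAND2 and GATA3, make noradrenaline from tyrosine through the enzymes TH, DDC and DBH, and store it in dense-core granules with chromogranins. A second, mesenchymal state with genes of neural crest migration is known, and the stroma adds macrophages, endothelium and fibroblasts.

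Estimated reads totalled 28614914, 44045575, 31242674 and 28747452 in tumors 0 to 3. Of 21716 protein-coding genes in the tables, 11651 reached 1 TPM (a level per transcript length, scaled to a fixed total in each library) in every tumor, 546 reached 100 TPM in every tumor, and 2138 had no read in any. Levels between genes are given in TPM and differences between tumors in CPM (reads scaled to a fixed library total after TMM normalization, log2 with 0.5 added), because TPM moved all genes of a tumor together. In the 11404 protein-coding genes that averaged 100 reads or more, the median gene deviated from its own mean over tumors by -0.20, 0.35, 0.31 and -0.46 log2 TPM in tumors 0 to 3, against -0.01, 0.03, 0.05 and -0.07 log2 CPM. Of these 11404 genes, 939 (8.23%) differed at least 2-fold in CPM between the highest and the lowest tumor and 288 (2.53%) at least 4-fold, with a median difference of 0.43 on the log2 scale. Tumors 0 and 3 stood apart from tumors 1 and 2 in the reads of repeat sequences and of mitochondrial genes described next. Tumor 3 also held the most residual ribosomal RNA, with 13.8% of TPM on transcripts of that type against 1.31%, 1.51% and 0.440% in tumors 0 to 2, and 77.7% of its TPM was protein-coding against 88.2% to 90.0%. The part of these reads in the differences between tumors was not tested. Values over tumors 1 and 2 alone are given beside several of the results that rest on tumors 0 and 3. In whole tumor RNA, fewer cells of a type and less RNA per cell cannot be told apart.

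By mean TPM the highest protein-coding entries were mostly satellite-like models and mitochondrial genes, but satellite-like models were among the highest in tumors 0 and 3 only. Among the 20 highest genes of each tumor taken alone, 8, 0, 0 and 7 were satellite-like models and 6, 4, 4 and 7 mitochondrial genes in tumors 0 to 3, and Ccnb1ip1 and Noct led in tumors 1 and 2. Of the 20 genes with the highest mean TPM over the 4 tumors, 7 were satellite-like models, 5 were encoded by the mitochondrial genome and 2 by genes of ribosomal proteins. These 20 genes took 44.2%, 11.9%, 11.9% and 43.8% of protein-coding TPM in tumors 0 to 3. The first was Gm10800, a predicted gene of the minus strand (GRCm38, chromosome 2, 98666547 to 98667301). It is 1 of 11 models called satellite-like here because each shared at least 20% of its 31-base words with Gm10800 or with another model of the set. Part of its sequence is shown because this family took the largest share of TPM in tumors 0 and 3. The first 225 bases of its 660-base transcript follow, 5′ to 3′, from the GENCODE transcript sequences, with 192 bases in capitals that lie in 31-base words found in other satellite-like models:
Gm10800: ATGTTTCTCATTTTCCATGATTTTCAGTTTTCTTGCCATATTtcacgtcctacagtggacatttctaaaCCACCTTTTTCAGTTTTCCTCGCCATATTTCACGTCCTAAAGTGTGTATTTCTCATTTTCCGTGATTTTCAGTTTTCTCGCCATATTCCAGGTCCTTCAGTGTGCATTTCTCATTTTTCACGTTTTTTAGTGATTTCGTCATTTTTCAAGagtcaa
Repeated 15-base words of this transcript were most often 225 bases apart, and 45.8% of its bases were T. Satellite DNA of mice is a tandem repeat of the regions around centromeres.

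Gm10800 stood at 149555 TPM in tumor 0, 3022 in tumor 1, 323 in tumor 2 and 94630 in tumor 3. The 11 models together held 12.4% and 9.06% of matched reads in tumors 0 and 3 against 0.115% and 0.0134% in tumors 1 and 2. All 11 had the same order of tumors in CPM (0 above 3 above 1 above 2), which 4.66% of all 11404 genes had. Their log2 differences ran from 8.56 for Gm10715 to 10.23 for Gm10800. Noct, the gene of nocturnin, a circadian phosphatase, collected more reads than any other protein-coding gene, with 8.75%, 8.93%, 7.61% and 9.62% of matched reads in tumors 0 to 3. It lies on chromosome 3 from 51224447 to 51251644, and of the 31-base words of its main transcript 42.7% were also found in transcripts of other genes. Noct differed by 0.56 on the log2 scale between tumors. Ccnb1ip1, a ubiquitin ligase of meiotic recombination on chromosome 14 from 50789248 to 50807732, stood at 5715, 19983, 21954 and 7214 TPM in tumors 0 to 3. Its main transcript shared 49.0% of its 31-base words with Rpph1, the RNA component of ribonuclease P. Sirt5, a deacylase of mitochondrial proteins, had 4520 ± 605 TPM (SD, n = 4), and its main transcript shared 27.5% of its 31-base words with Wdr31. For such genes the reads could belong to another transcript, and this was not tested.

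Lars2, which encodes the leucyl-tRNA synthetase of mitochondria, was the third gene by reads and ran against the order of the satellite-like models. It stood at 610, 3888, 11136 and 273 TPM in tumors 0 to 3, with a log2 difference of 4.65 in CPM. Almost all of this (99.5%) lay on a single transcript annotated as a target of nonsense-mediated decay, of which 1.13% of 31-base words were shared. Tumor 2 was highest and tumor 3 lowest for Lars2, in the order 2, 1, 0, 3, which 20.2% of all 11404 genes had. The 13 protein-coding genes of the mitochondrial genome held 3.11%, 1.40%, 1.31% and 6.14% of matched reads in tumors 0 to 3. All 13 were highest in tumor 3 in CPM (25.9% of all 11404 genes), and 12 of 13 differed at least 4-fold (2.53%). mt-Co1, a subunit of cytochrome c oxidase, had 10505, 5455, 5218 and 15748 TPM in tumors 0 to 3. mt-Nd3, a subunit of complex I named after its values were seen, was the exception, with a log2 difference of 0.75. Many of these genes share their sequence with nuclear copies. All 31-base words of mt-Co2 and 99.5% of those of mt-Atp6 also occurred in pseudogenes.

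**Figure D1:**
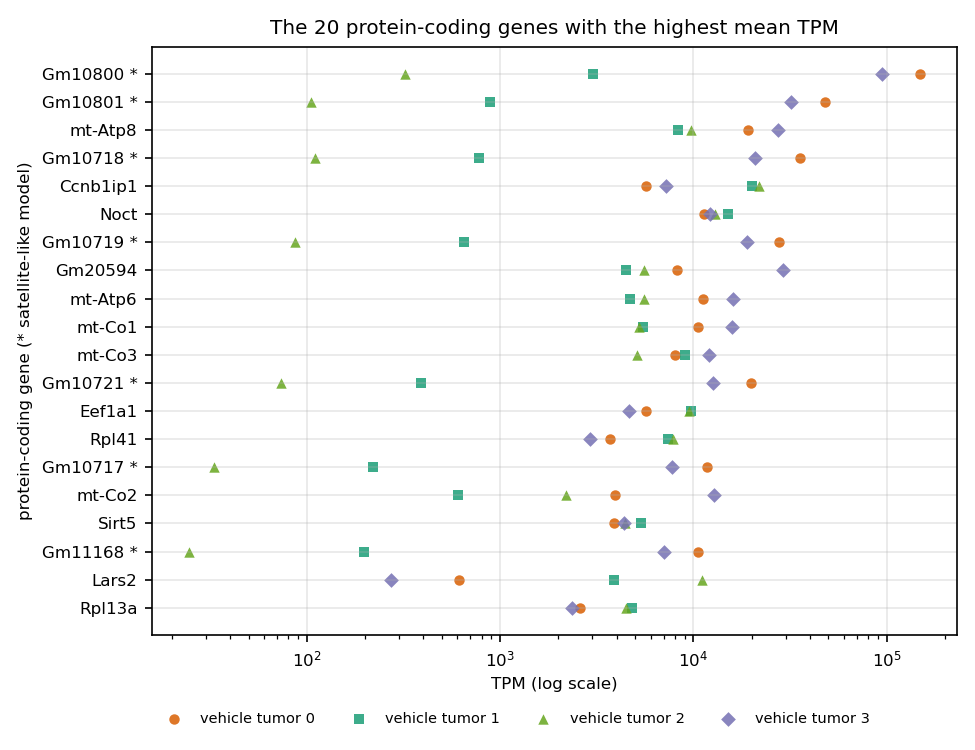
The 20 protein-coding genes with the highest mean TPM (vertical axis) against TPM on a log scale (horizontal axis), 1 point for each vehicle tumor. The satellite-like models, marked with asterisks, lie at 7024 TPM or more in tumors 0 and 3 and at most at 3022 TPM in tumors 1 and 2, while Noct and Sirt5 lie close together in all 4.

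Below these entries came the genes of protein synthesis. Eef1a1, the elongation factor that brings aminoacyl-tRNA to the ribosome, had 5700, 9691, 9538 and 4616 TPM in tumors 0 to 3, and Rpl41, a ribosomal protein, had 3716, 7378, 7815 and 2918. Both were higher in TPM in tumors 1 and 2, but in CPM their log2 differences were 0.38 and 0.83. Actb, which encodes β-actin, had 3468 ± 1742 TPM (SD, n = 4). With mitochondrial genes and satellite-like models left out, 60 of the 100 highest genes encoded ribosomal proteins, out of 85 such genes in the tables. None of the 83 ribosomal protein genes with a mean of 100 reads differed 4-fold (2.53% of all 11404 genes) and 3 differed 2-fold (8.23%).

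The first gene by reads whose main transcript shared no 31-base word with another gene was Chgb, on chromosome 2 from 132781278 to 132795079 on the plus strand. It encodes chromogranin B, a protein of dense-core granules. Chgb had 1378, 1557, 1120 and 973 TPM and 97129, 135017, 70525 and 81120 reads in tumors 0 to 3, and was 18th among protein-coding genes by reads. Its mean level was 1257 ± 261 TPM (SD, n = 4) and its log2 difference in CPM was 0.75, with tumor 0 highest and tumor 2 lowest.

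Genes of the sympathetic neuroblast were high in all 4 tumors. Of 75 genes in 5 neuroblast lists, 59 reached 1 TPM and 47 reached 10 TPM in every tumor, while 12 stayed under 1 TPM in all. Of 165 genes in 15 lists of host cells, 84 reached 1 TPM and 35 reached 10 TPM in every tumor, and 58 stayed under 1 TPM in all. The neuroblast lists summed to 7372, 10976, 10382 and 5090 TPM in tumors 0 to 3, and the host lists to 1655, 2727, 2126 and 1569. The ratio of these sums was 4.45, 4.03, 4.88 and 3.24 in tumors 0 to 3, lowest in tumor 3. Over tumors 1 and 2 alone the sums averaged 10679 and 2426 TPM. These sums depend on which genes each list holds and are not shares of cells. Among the members with a mean of 100 reads, 2 of 60 neuroblast genes and 3 of 79 host genes differed at least 4-fold. These counts are close to the 2.53% of all 11404 genes that did. At least 2-fold, 10 of the 60 and 19 of the 79 differed, above the 8.23% of all 11404 genes. The median log2 differences of the neuroblast and host members were 0.56 and 0.67, against 0.43 for all 11404 genes.

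Of 16 noradrenergic transcription factors, 13 reached 1 TPM in every tumor and 8 reached 10 TPM. Phox2a, a homeodomain factor of noradrenergic neurons, was the highest, at 126, 166, 179 and 79.9 TPM in tumors 0 to 3. On the CPM scale, which compares tumors, Phox2a differed by 0.68 (log2) and Hand2, a basic helix-loop-helix factor of sympathetic precursors, by 0.39. Hand2 had 115 ± 25.3 TPM, Sox4, an HMG-box factor, 71.6 ± 23.0 and Isl1, a LIM factor of sympathetic and sensory neurons, 34.3 ± 11.5 (SD, n = 4 each). Gata3, a zinc-finger factor of the same circuit, was far lower at 1.98 ± 0.569 TPM. Mycn, the oncogene amplified in aggressive neuroblastoma, had 11.4, 18.1, 12.1 and 4.63 TPM in tumors 0 to 3. Of 13 members with a mean of 100 reads it was the only 1 with a 2-fold difference (log2 difference 1.19), near the 8.23% of all 11404 genes. Tumor 3 was lowest, as in 42.9% of all 11404 genes.

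Genes of each step from tyrosine to noradrenaline were detected. Th, tyrosine hydroxylase, the rate-limiting enzyme, had 115, 121, 116 and 47.1 TPM in tumors 0 to 3. Dbh, dopamine β-hydroxylase, which makes noradrenaline, had 71.5, 110, 101 and 41.0 TPM, and Ddc, which decarboxylates L-DOPA, 13.2, 29.6, 34.1 and 14.8. In tumor 3 both Th and Dbh were the lowest on the CPM scale too, with log2 differences of 1.09 and 0.74. Cyb561, the cytochrome that passes electrons into the granule for DBH, had 81.7 ± 35.0 TPM, and Gch1, the first enzyme of the cofactor of tyrosine hydroxylase, 72.5 ± 22.7 TPM (SD, n = 4 each). Gch1 had a log2 difference of only 0.22 in CPM. Pnmt, which makes adrenaline from noradrenaline, and Slc6a2, the noradrenaline transporter, were the 2 members under 1 TPM in every tumor. They were named after their values were seen, and had 0 to 2 and 5 to 17 reads. Maoa, monoamine oxidase A, degrades catecholamines. Of 7 members with a mean of 100 reads it was the only 1 that differed 4-fold (2.53% of all 11404 genes). It had 20.5, 3.06, 2.71 and 36.3 CPM in tumors 0 to 3, high in tumors 3 and 0 and low in tumors 1 and 2, as the satellite-like reads were. Whether these reads have a part in it was not tested. Between tumors 1 and 2 alone Maoa differed by 0.17 on the log2 scale.

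Of 16 granule proteins and neuropeptides, 14 reached 1 TPM in every tumor. After Chgb, the highest were Vgf, a granin induced by nerve growth factor, at 397 ± 120 TPM, Scg2, secretogranin II, at 285 ± 83.4, and Scg5, a chaperone of prohormone convertase, at 159 ± 42.1 (SD, n = 4 each). Scg2 and Scg5 differed little between tumors, with log2 differences of 0.29 and 0.26 in CPM. Chga, chromogranin A, had 228, 184, 143 and 115 CPM in tumors 0 to 3. Npy, neuropeptide Y, had the widest spread among the members with a mean of 100 reads, at 5.60, 4.19, 1.89 and 8.01 CPM (log2 difference 1.83). The 2 members under 1 TPM in every tumor, named after their values were seen, were the neuropeptides Gal and Sst, with at most 4 reads.

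Of 23 genes of the neuronal cytoskeleton and neuronal RNA-binding proteins, 19 reached 10 TPM in every tumor. Tuba1a, a tubulin of growing neurites, had 811, 1582, 1692 and 538 TPM in tumors 0 to 3, and Tubb3, the neuron-specific β-tubulin, 429, 764, 820 and 216. In CPM both were highest in tumor 2 and lowest in tumor 3, with log2 differences of 0.99 and 1.30. Uchl1, a ubiquitin hydrolase of neurons, had 459 ± 194 TPM, Prph, the intermediate filament peripherin, 424 ± 174, and Stmn2, a microtubule regulator of growth cones, 128 ± 48.1 (SD, n = 4 each). Of the 20 members with a mean of 100 reads, 14 were lowest in tumor 3, against 42.9% of all 11404 genes. Nefl, Nefm and Rtn1, all of mature neurons and named after their values were seen, stayed under 1 TPM in every tumor. Among the receptors, Ret, the receptor for ligands of the GDNF family, was high at 179, 236, 271 and 132 TPM. Ngfr, the low-affinity neurotrophin receptor, had 31.1 ± 13.5 TPM and Alk, the receptor kinase mutated in familial neuroblastoma, 18.6 ± 2.97 (SD, n = 4 each). Gfra3, a co-receptor of RET, had no read in any tumor. Ntrk2, the receptor for brain-derived neurotrophic factor, had 22.1, 2.00, 1.80 and 54.4 CPM in tumors 0 to 3, a log2 difference of 4.58 that was the largest of all neuroblast lists. Its main transcript shared 1.30% of its 31-base words with other genes, and that of Maoa 6.91%.

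Genes of other neural crest fates were low. Of 4 cholinergic genes, Ache, acetylcholinesterase, was the one that reached 1 TPM in every tumor, at 21.4 ± 7.76 TPM (SD, n = 4), while Chat, which makes acetylcholine, had 0.616 ± 0.355 TPM (SD, n = 4). Of 10 Schwann cell genes, 7 stayed under 1 TPM in every tumor. Sox10, the factor that defines the glial lineage, had 1 to 3 reads, and Foxd3, a factor of the migrating neural crest, none. Of 10 genes of mesenchymal neuroblastoma, 7 reached 1 TPM in every tumor but none reached 10. Fosl2, an AP-1 factor, led at 11.3 ± 2.06 TPM, and Prrx1, a homeodomain factor of that state, had 2.54 ± 0.592 (SD, n = 4 each). These genes are also used by fibroblasts.

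**Figure D2:**
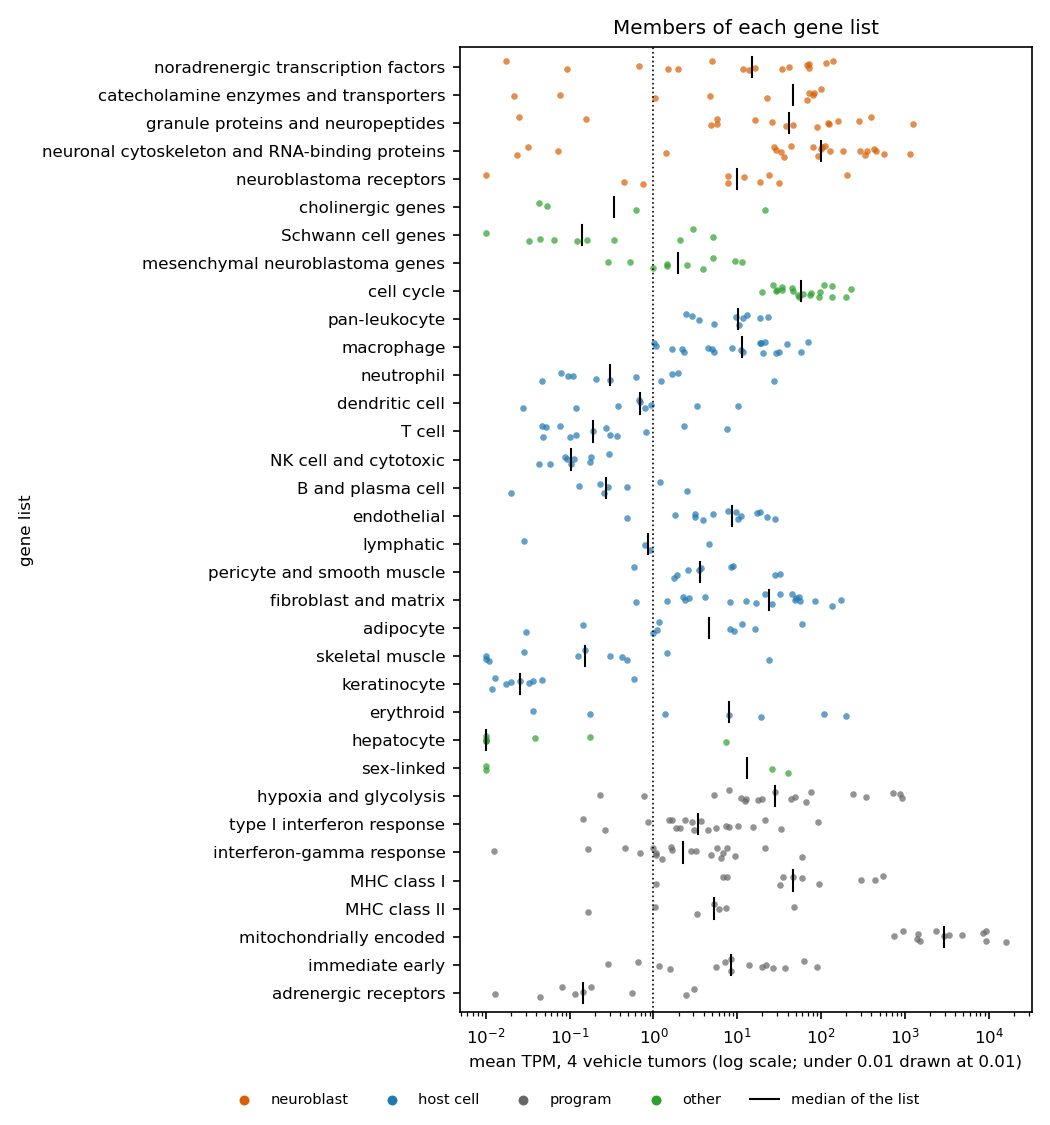
Each point is a gene, placed by its mean TPM over the 4 vehicle tumors (horizontal axis, log scale) and its gene list (vertical axis), with a black bar at the median of the list and a dotted line at 1 TPM (values under 0.01 TPM are drawn at 0.01). The neuroblast lists other than that of catecholamine genes, whose highest member is Th at 99.7 TPM, have members above 100 TPM, the macrophage, endothelial and fibroblast lists lie mostly above 1 TPM, and the T cell, NK cell, keratinocyte and hepatocyte lists lie mostly below it.

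Proliferation genes were high in every tumor. All 20 cell cycle genes reached 1 TPM and 19 reached 10 TPM in all 4. Cdk1, the kinase that starts mitosis, had 145, 292, 352 and 121 TPM in tumors 0 to 3, and Top2a, a topoisomerase of dividing cells, 143, 245, 280 and 134. In CPM, 18 of 20 were highest in tumor 2 against 38.8% of all 11404 genes, and 5 differed at least 2-fold (8.23% of all genes). The list summed to 2278, 2710, 3270 and 2320 CPM. Cdc20, an activator of the anaphase-promoting complex, differed most, at 25.8, 41.5, 54.1 and 21.6 CPM. Histone genes of the replication clusters, whose mRNAs carry no poly(A) tail, were also highest in tumor 2, but most were lowest in tumor 0. Of 60 with a mean of 100 reads, 59 were highest in tumor 2 (38.8% of all 11404 genes). Among these 60, 56 differed at least 2-fold (8.23%) and 48 had the order 2, 1, 3, 0 (9.18%). They summed to 2050, 3780, 5665 and 2515 CPM in tumors 0 to 3. Hist1h2ai, a histone H2A gene, had 0.222, 3.64, 9.26 and 1.19 CPM in tumors 0 to 3. Histone genes share much of their sequence, so the level of a single member is uncertain.

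Glycolytic genes were high. Of 19 measured genes of hypoxia and glycolysis, 13 reached 10 TPM in every tumor. Ldha, lactate dehydrogenase A, had 917 ± 303 TPM, Aldoa, aldolase A, 866 ± 226, and Gapdh 718 ± 180 (SD, n = 4 each). In CPM Gapdh had a log2 difference of 0.16 and the list sums stayed between 3233 and 3724. Of the 17 members with a mean of 100 reads, 7 differed 2-fold (8.23% of all 11404 genes) and 1 differed 4-fold (2.53%). The latter was Tpi1, triosephosphate isomerase, at 6.90, 2.56, 8.95 and 17.2 CPM in tumors 0 to 3. Car9 and Egln3, targets of hypoxia-inducible factor named after their values were seen, stayed under 1 TPM in every tumor. Of 15 immediate early genes, 12 reached 1 TPM in every tumor, led by Jund at 90.3 ± 33.0 TPM and Junb at 62.8 ± 24.4 (SD, n = 4 each), both AP-1 subunits.

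Among host cells, the lists of connective tissue and macrophages had the highest mean summed TPM. The macrophage list summed to 360 ± 95.7 TPM and the erythroid list to 334 ± 239 (SD, n = 4 each). In tumor 1 the erythroid list was the higher of these, at 660 TPM against 467.5. Of 20 fibroblast and matrix genes, 19 reached 1 TPM in every tumor and the list summed to 777 ± 106 TPM (SD, n = 4). Fn1, fibronectin, led at 175, 192, 149 and 171 TPM in tumors 0 to 3 (log2 difference 0.62 in CPM), followed by Sparc, a matrix protein of remodelling tissue, at 117, 177, 156 and 91.4. Col1a1, a chain of collagen I, had 49.8 ± 11.8 TPM, and Pdgfra, a receptor that marks fibroblasts, 2.63 ± 0.841 (SD, n = 4 each). Dcn, the small matrix proteoglycan decorin, varied most among the members with a mean of 100 reads, at 5.89, 2.33, 2.68 and 10.3 CPM. Tumor cells can make fibronectin and SPARC themselves, and which cells made them was not tested.

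Of 20 macrophage genes, 17 reached 1 TPM in every tumor. Lyz2, lysozyme, had 49.3, 93.0, 76.1 and 59.8 TPM, and Mrc1, the mannose receptor of tissue macrophages, 34.0, 62.2, 51.0 and 82.5. Csf1r, the receptor on which macrophages depend, had 11.2 ± 4.05 TPM and Adgre1, the gene of F4/80, 4.48 ± 1.24 (SD, n = 4 each). In CPM the list summed to 417, 554, 473 and 906 in tumors 0 to 3, with tumor 3 highest and tumor 0 lowest. Without Mrc1 and Cd163 the sums were 193, 265, 230 and 296 CPM. Csf1r had 15.8, 23.2, 23.3 and 20.3 CPM and Adgre1 5.93, 9.44, 8.13 and 9.24, both highest outside tumor 3. Mrc1 had 157, 196, 168 and 444 CPM, and Cd163, a scavenger receptor of tissue macrophages, 66.8, 93.9, 75.4 and 166. Of 16 members with a mean of 100 reads, 9 were highest in tumor 3 (25.9% of all 11404 genes) and 4 differed 2-fold (8.23%). Ptprc, the gene of CD45 carried by all leukocytes, had 7.79, 9.44, 8.16 and 19.2 CPM, also highest in tumor 3.

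Most lymphocyte genes were under 1 TPM. As a guide to the level of genes of an unrelated tissue, of 1454 olfactory and vomeronasal receptor genes, which belong to sensory neurons of the nose, 1253 stayed under 1 TPM in every tumor and 75 reached 1 TPM in all 4. Their median was 0.0164, 0, 0 and 0.0353 TPM in tumors 0 to 3. Of 13 T cell genes, 10 stayed under 1 TPM in every tumor. Cd3e, a chain of the T cell receptor complex, had 2, 3, 1 and 6 reads, Cd4 7, 33, 11 and 10, and Cd8a 8, 14, 7 and 27. Lck, the kinase of T cell receptor signalling, was the highest at 7.56 ± 1.52 TPM (SD, n = 4), and its main transcript shared no 31-base word with another gene. All 9 genes of NK and cytotoxic cells stayed under 1 TPM in every tumor, with Ncr1, which defines NK cells, at 1, 2, 1 and 9 reads. Of 8 B and plasma cell genes none reached 1 TPM in every tumor and 5 stayed under it in all. Igkc, the constant region of immunoglobulin κ, had 0.371, 0.0620, 0.0609 and 3.39 CPM in tumors 0 to 3, 88 reads in tumor 3 against at most 10 elsewhere. S100a8 and S100a9, the subunits of calprotectin in neutrophils, had 8 to 23 and 13 to 33 reads. In the same list Cxcr2, a chemokine receptor, had 27.5 ± 9.82 TPM (SD, n = 4), and its main transcript shared 12.2% of its 31-base words with other genes.

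Of 14 endothelial genes, 12 reached 1 TPM in every tumor. None of the 12 with a mean of 100 reads differed 2-fold (8.23% of all 11404 genes). Pecam1, the adhesion protein CD31, had 18.7, 27.5, 24.5 and 20.3 TPM, and Cdh5, the cadherin of endothelial junctions, 9.72, 15.1, 10.8 and 8.34. The summed endothelial CPM stayed between 248 and 300. Of 10 genes of pericytes and smooth muscle, 9 reached 1 TPM in every tumor, led by Acta2, smooth muscle actin, at 32.7 ± 11.4 TPM and Rgs5, a pericyte regulator of G proteins, at 28.1 ± 8.28 (SD, n = 4 each). Lymphatic genes were low. Prox1, which specifies lymphatic endothelium, had 2 to 8 reads, while Pdpn, podoplanin, had 4.93, 3.06, 3.26 and 13.9 CPM, highest in tumor 3.

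Genes of red blood cells and of fat varied between tumors. Hbb-bs, a β-globin gene, had 44.5, 103, 53.0 and 27.1 CPM in tumors 0 to 3, and Hba-a1, an α-globin gene, 27.3, 66.3, 40.0 and 16.9. All 4 erythroid genes with a mean of 100 reads were highest in tumor 1 (14.4% of all 11404 genes) and differed at least 2-fold (8.23%). Hbb-bs shared 66.9% of its 31-base words with Hbb-bt and Hba-a1 71.3% with Hba-a2, so the split between copies is uncertain. Adipoq, adiponectin, the hormone of fat cells, had 0.482, 0.929, 1.89 and 0.0770 CPM, from 2 to 62 reads, and was highest in tumor 2. Fabp4, a fatty acid carrier of adipocytes, macrophages and endothelium, had 17.2, 29.5, 36.2 and 25.6 CPM. Lpl, lipoprotein lipase, took the other order within the same list, at 35.1, 11.6, 13.7 and 71.2 CPM (log2 difference 2.57). Outside the lists, Scd1, a desaturase that makes monounsaturated fat, had 18.2, 43.1, 156 and 14.1 CPM, so tumor 2 stood far above the others.

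Most genes of skin, muscle and liver were under 1 TPM. Of 9 keratinocyte genes 8 stayed under 1 TPM in every tumor, and Krt14, a keratin of the basal epidermis, had 0, 3, 0 and 0 reads. Of 11 skeletal muscle genes 9 did, with Ckm, muscle creatine kinase, at 5 to 10 reads. Mylpf, a myosin light chain, stood out at 23.9 ± 11.4 TPM (SD, n = 4), with most of its TPM on a 285-base transcript annotated as a retained intron. Of 7 hepatocyte genes, Ahsg, fetuin A, was the 1 above 1 TPM, at 7.35 ± 0.776 TPM (SD, n = 4), while Alb, albumin, had 0, 7, 1 and 0 reads. On the Y chromosome, Ddx3y, an RNA helicase, had no read in any tumor and Eif2s3y, a translation factor, 0 or 1. Uty and Kdm5d, demethylase genes of the Y chromosome, had 40.6 ± 46.1 and 25.9 ± 8.18 TPM (SD, n = 4 each), but 99.4% of Uty lay on a transcript with a retained intron and 97.8% of Kdm5d on a target of nonsense-mediated decay. Uty had 47.1, 7.02, 5.54 and 157 CPM in tumors 0 to 3, again high in tumors 3 and 0, and differed by 0.34 (log2) between tumors 1 and 2 alone. Xist was not analysed here.

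**Figure D3:**
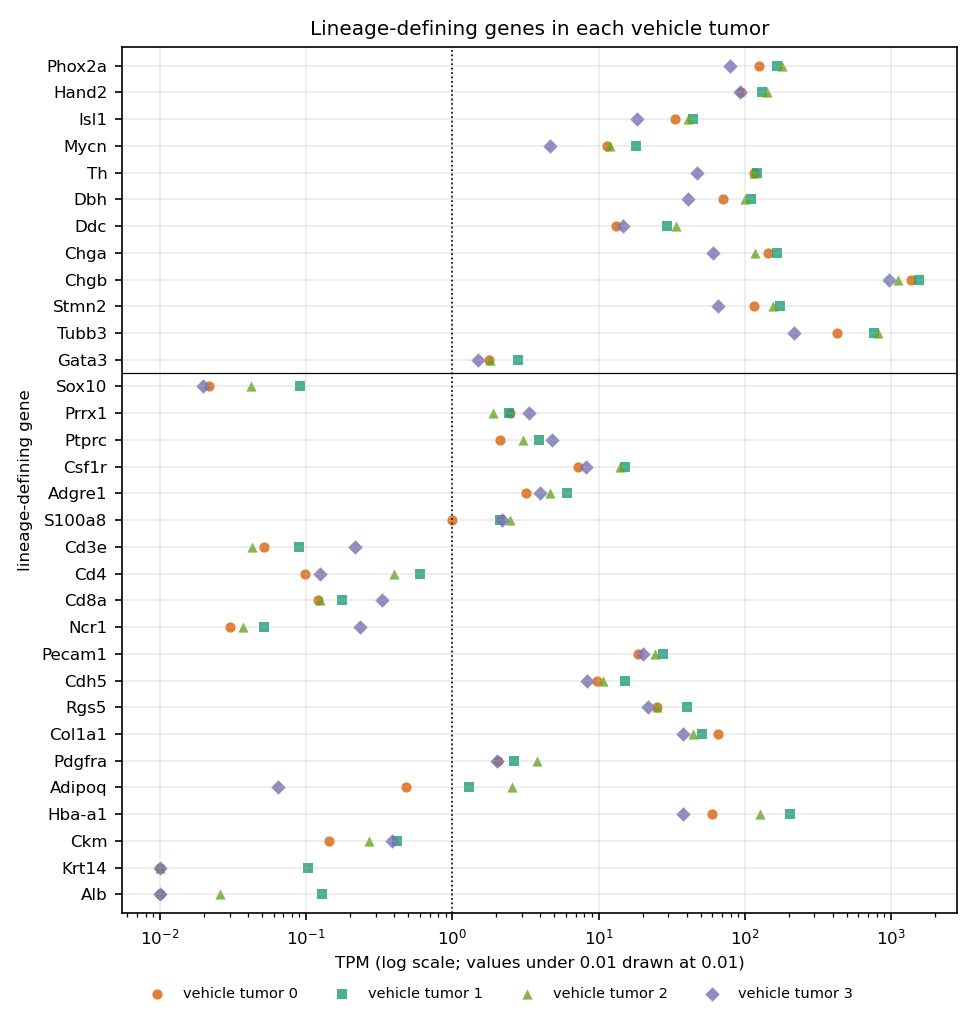
Lineage-defining genes (vertical axis) against TPM on a log scale (horizontal axis), 1 point for each vehicle tumor, with neuroblast genes above the horizontal line, other lineages below it, a dotted line at 1 TPM and values under 0.01 TPM drawn at 0.01. Chgb lies between 973 and 1557 TPM, whereas Sox10, Cd3e, Cd8a and Ncr1 lie under 1 TPM in every tumor.

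RNA of genes for antigen presentation by MHC class I was high, and presentation itself was not measured. H2-K1 and H2-D1, the class I heavy chains, had 399, 651, 628 and 529 TPM and 232, 388, 326 and 266 TPM in tumors 0 to 3, and B2m, their light chain, 341, 504, 458 and 442. The main transcript of H2-K1 is annotated as a retained intron. Of the 10 members with a mean of 100 reads, 8 were highest in tumor 3 (25.9% of all 11404 genes) and 8 lowest in tumor 0 (21.9%). None of them differed 2-fold (8.23%). MHC class II was lower, with Cd74, the invariant chain, at 47.1 ± 16.5 TPM and H2-Aa at 7.33 ± 3.24 (SD, n = 4 each). Of 20 genes of the response to interferon-gamma, 12 reached 1 TPM in every tumor. Psmb8, a subunit of the immunoproteasome, had 59.6 ± 15.1 TPM and Irf1, a transcription factor induced by interferon, 21.5 ± 7.64 (SD, n = 4 each). Of the 12 members with a mean of 100 reads, 11 were highest in tumor 3 against 25.9% of all 11404 genes. Among these 12, 6 differed 2-fold (8.23% of all genes) and 2 differed 4-fold (2.53%). Gbp4, a guanylate-binding protein, had 2.11, 1.96, 1.43 and 8.47 CPM in tumors 0 to 3. Cd274, the gene of PD-L1, had 5.79, 4.46, 4.20 and 11.4 TPM and 16.7, 8.65, 8.47 and 39.3 CPM, a log2 difference of 2.15, with tumors 3 and 0 above tumors 1 and 2. Tumors 1 and 2 alone differed by 0.06 on the log2 scale. The main transcript of Cd274 shared 14.6% of its 31-base words with other genes, 12.1% with the antisense gene AC119228.1. Its order of tumors was also that of most olfactory and vomeronasal receptor genes, whose part in it was not tested. Ifng itself had 1, 0, 1 and 2 reads. Of 20 genes of the type I interferon response, 17 reached 1 TPM in every tumor. They were led by Ifi27, an interferon-induced gene, at 91.6 ± 37.9 TPM and Bst2, an antiviral membrane protein, at 33.3 ± 11.9 (SD, n = 4 each). Among the 12 with a mean of 100 reads, none differed 4-fold (2.53% of all 11404 genes) and 7 were highest in tumor 3 (25.9%). The MHC class I and interferon-gamma lists share genes, Psmb8 among them.

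Adrenergic receptors, which bind the noradrenaline that such tumors make, were low. Of 9 genes, 6 stayed under 1 TPM in every tumor. Adra2b, an α2 receptor, had 2.11, 3.47, 2.34 and 1.97 TPM, and Adrb1, the β1 receptor, 2.60, 1.66, 2.72 and 5.21. Adrb3, the β3 receptor, had 0, 4, 5 and 5 reads in tumors 0 to 3, or 0.145 ± 0.126 TPM (SD, n = 4). The 0 reads of tumor 0 cannot be told apart from the handful in the other tumors.

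**Figure D4:**
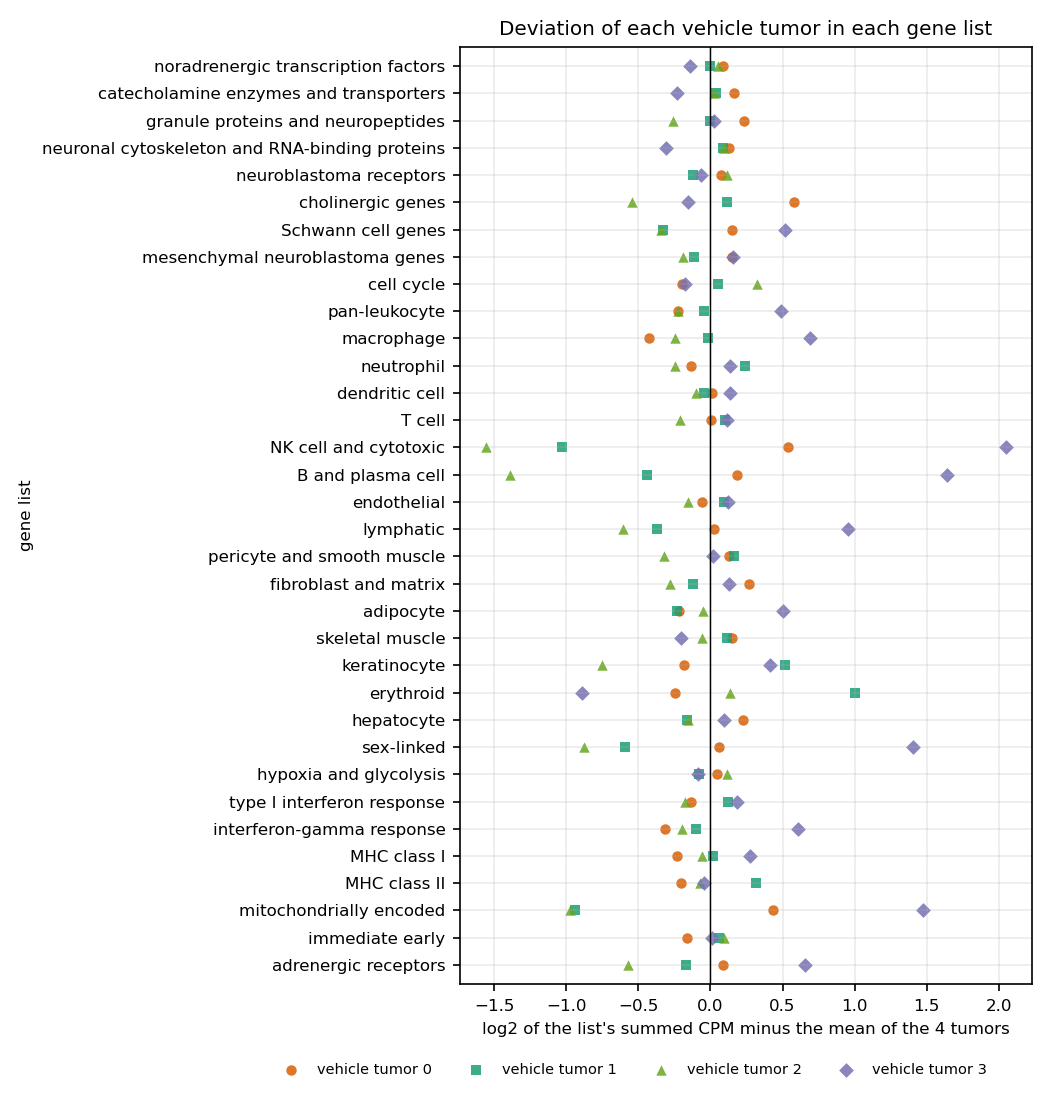
For each gene list (vertical axis), the log2 of the summed CPM of each vehicle tumor minus the mean of the 4 tumors (horizontal axis). The neuroblast lists stay close to 0, tumor 3 lies to the right for the macrophage, interferon-gamma and mitochondrially encoded lists, tumor 1 lies to the right for the erythroid list, and the wide NK and B cell lists rest on few reads.

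At the 4-fold threshold, variation among the 4 tumors was dominated by a single order. Of the 288 genes with a 4-fold difference in CPM, 236 were highest in tumor 3, whereas 25.9% of all 11404 genes were. The order 3, 0, 1, 2 held in 173 of these 288 genes (8.73% of all 11404 genes) and the order 3, 0, 2, 1 in 57 (6.18%). Across the 11404 genes, Pearson correlations of log2 CPM between tumors ran from 0.913 (tumors 2 and 3) to 0.991 (tumors 1 and 2), where genes are not independent replicates. The biological coefficient of variation common to all genes was 0.281 over the 4 tumors, 0.220 without tumor 3 and 0.116 for tumors 1 and 2 alone. Between tumors 1 and 2, 46 genes differed 2-fold and 14 differed 4-fold, of which all but Rps12-ps3, Pagr1a, Gm45140 and Lamb1 were satellite-like models. Lamb1, a laminin chain, was named after its values were seen. The main transcript of Pagr1a shared 98.7% of its 31-base words with Gm42742, so its level is uncertain.

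Of the 288 genes, 11 were satellite-like models, 118 were olfactory or vomeronasal receptors, 12 were mitochondrially encoded and 15 were among the 60 histones. The receptors were the largest class: 118 of 142 with a mean of 100 reads differed 4-fold (2.53% of all genes), 135 of 142 were highest in tumor 3, and together they held 0.331%, 0.160%, 0.134% and 0.618% of matched reads. Vmn1r60, a vomeronasal receptor, had 19.1, 1.61, 0.792 and 50.6 CPM in tumors 0 to 3. The share of reads on transcripts with a retained intron was also highest in tumor 3, at 3.76% against 2.85%, 2.73% and 2.56% in tumors 0 to 2. Of the 132 remaining genes, 101 had tumor 3 highest and tumor 0 next. Epha5, an ephrin receptor of the developing brain, had 16.7, 1.26, 0.609 and 68.7 CPM, Gpr37, a receptor of oligodendrocytes, 14.4, 1.18, 0.670 and 58.9, and Dlx6, a homeodomain factor of the forebrain, 13.6, 0.950, 0.305 and 32.0. The main transcripts of Epha5, Gpr37 and Dlx6 shared 1.15%, 1.89% and 10.7% of their 31-base words with other genes. Their order of tumors was that of most receptors, and the part of the repeat, receptor and residual ribosomal RNA reads in it was not tested. Without satellite-like models and receptors, 159 of 11251 genes differed 4-fold, and without tumor 3 90 of 11400 did.

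Among the 288 genes with a 4-fold difference, 8 took the opposite order (2, 1, 0, 3). Over all 11404 genes that order was the most common, in 2304 (20.2%). It held in 124 (13.2%) of the 939 genes with a 2-fold difference. Some other genes were lowest in 1 tumor or found in some tumors only. Lars2 and Scd1 are described above. Hp, haptoglobin, a plasma protein that binds hemoglobin, had 10.5, 21.6, 44.9 and 3.58 CPM in tumors 0 to 3, and was named after its values were seen. Amd1, which makes the precursor of polyamines, had 68.4, 108, 105 and 17.9 CPM, and Acp2, a lysosomal phosphatase, 31.1, 26.9, 24.3 and 7.05, both lowest in tumor 3. Tmem38b, an ion channel of the endoplasmic reticulum, was lowest in tumor 0, at 23.2 CPM against 64.0, 60.8 and 131. Rps12-ps3, a copy of a ribosomal protein gene, had 0 reads in tumor 1 and 2747, 2891 and 10984 in tumors 0, 2 and 3. Fam177a, of unknown role, had 581, 1029, 681 and 0 reads, and 1700047I17Rik2, beside it on chromosome 12, had 0, 0, 0 and 549, so that no tumor had reads on both. Hist1h4m had 724 reads in tumor 0 and none elsewhere, and Gm14440 had 674 in tumor 3 and none elsewhere. Each of these 5 genes has a near copy: Rps12-ps3 shared 100% of its 31-base words with Rps12, 1700047I17Rik2 100% with Fam177a, Gm14440 100% with Gm14288 and Hist1h4m 91.7% with Hist1h4n. Such genes are reported as uncertain.

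**Figure D5:**
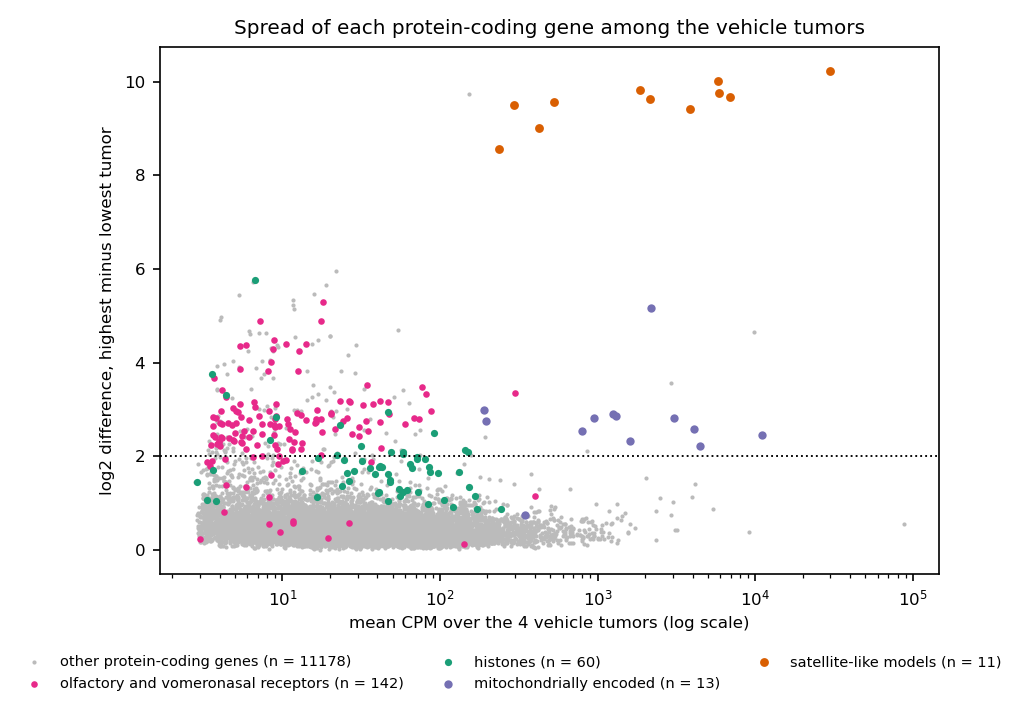
Each point is a protein-coding gene that averaged 100 reads or more, placed by its mean CPM over the 4 vehicle tumors (horizontal axis, log scale) and its log2 difference between the highest and the lowest tumor (vertical axis), with a dotted line at 4-fold. Satellite-like models lie between 8.56 and 10.23, 12 of 13 mitochondrially encoded genes and most receptors above the line, and the bulk of other genes below 1.

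Most genes were even. Of the 11404 genes, 91.8% differed less than 2-fold. Ccnt1, cyclin T1, a subunit of the elongation factor P-TEFb, was the most even gene with at least 1000 reads, at 133, 132, 131 and 132 CPM in tumors 0 to 3. The 10 most even genes all had log2 differences of 0.02 to 0.04. They included Cul4a, a ubiquitin ligase scaffold, Sun1, a protein of the inner nuclear membrane, Mdn1, a ribosome assembly factor, and Trappc9, a subunit of a vesicle tether. Among neuroblast genes, Hand2, Gch1, Scg2, Scg5 and Ret all had log2 differences under 0.43, the median of all genes.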

How the data were processed

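RNA of 4 vehicle tumors was sequenced from stranded total RNA libraries. The authors quantified transcripts with Salmon and deposited TPM and estimated counts (NumReads) for each tumor. GRCm38 is the build in their Methods, while GRCm39 stands in the submitters' processing notes. Transcripts were matched here to GENCODE annotation of GRCm38 (115685 of 116747 IDs, 99.1%). Coordinates are those of GRCm38. The authors also deposited a table of gene signal, counts normalized with DESeq2, used only as an alternative. Its 3547 genes with a mean of 100 reads were part of those tested.

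Both were added up by gene symbol. Counts were scaled by TMM in edgeR 4.0.16 (R 4.3.3) over the 4 tumors, and differences between the highest and the lowest tumor were taken in log2(CPM + 0.5), which understates the change of low genes, for genes that averaged 100 reads or more. Shared sequence was counted in 31-base words between transcripts of different genes. DESeq2 1.42.0 gave alternative size factors. Python 3.11.15 with pandas 2.3.3 and numpy 2.4.6 did the rest. In counts simulated for 11433 genes, 38 of 50 genes changed 4-fold and 50 of 50 changed 8-fold passed the 4-fold threshold, and 0 unchanged genes did. The spread of these counts was a setting of the simulation, lower than the biological coefficient of variation of 0.281 of the 4 tumors. At that setting unchanged genes could hardly pass, so their count of 0 does not carry over to the tumors. How many unchanged genes pass the threshold at the spread of the 4 tumors was not tested.

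Named genes were the 20 highest by TPM, the 10 highest by reads, the 20 with the largest differences, the 5 with the largest gap for each tumor in each direction, the 10 most even, and from each of 34 lists the 4 highest members, the widest, lineage-defining members and those without reads. Tumors and lists were chosen with earlier results of these data known. Tumors are grouped by their titles and the treatment label. The SR59230A tumors were not used here. Some genes of the lists are not reported here by name.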

Additional observations from a re-analysis of the deposited data

Results flagged for a closer look

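A tumor was marked when it lay far from the other 3, by a gap to its nearest neighbour, as a share of the range of the 4 tumors, above Dixon's critical value. This held for 1 of 34 list sums and 21 of 149 genes named in the text. Chance marks about 1 in 20 such groups of values, and the genes named were chosen partly for wide differences, so the count of genes is no result.

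Tumor 3 was lowest for the summed neuronal cytoskeleton and RNA-binding proteins, at 6368 CPM. It was also lowest for 2 catecholamine genes, Dbh at 96.5 CPM and Gch1 at 104 CPM, although Gch1 differed by only 0.22 on the log2 scale. Fam177a had 0 CPM in tumor 3.

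Tumor 3 was highest for Mrc1 at 444 CPM, Ptprc at 19.2 CPM, B2m at 248 CPM and Gbp4 at 8.47 CPM. Igkc at 3.39 CPM, Cd8a at 1.04 CPM and Ncr1 at 0.347 CPM rest on few reads. So does Pnmt at 0.0770 CPM. The gene models 1700047I17Rik2 and Gm14440, which have near copies, were found in tumor 3 alone, at 21.1 and 26.0 CPM.

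The other tumors were marked in fewer genes. Tumor 0 was highest for Hist1h4m at 26.8 CPM. Tumor 1 was highest for Hba-a2 at 9.17 CPM and Cd74 at 47.3 CPM, and for Krt14 at 0.0620 CPM and Eif2s3y at 0.0207 CPM, which rest on 3 reads and 1 read. Tumor 2 was highest for Pagr1a, which has a near copy, at 14.5 CPM and for Sst at 0.0305 CPM, a single read. It was lowest for Rgs5 at 51.4 CPM. The part of the repeat and mitochondrial reads of tumor 3 in its marked genes was not tested.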

How the results depend on the processing

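The count of 288 genes with a 4-fold difference depended on the filter, the scale and the tumors. It was 526 with a mean of at least 10 reads or with no filter, 105 with a mean of at least 500 reads and 180 in log2(TPM + 0.5). It was 153 in the authors' normalized counts, where 158 of the same 3547 genes passed in CPM. Leaving out 1 tumor at a time gave 90 to 298, with the lowest count without tumor 3, and tumors 1 and 2 alone gave 15. Without satellite-like models and olfactory and vomeronasal receptors, an alternative chosen after seeing the data, it was 159. The cause of these shifts was not tested beyond the genes and tumors each setting leaves out. It stayed within 1.5 times under DESeq2 size factors (292), library totals (271), an added value of 0.1 (318) or 1 (261) CPM and protein-coding transcripts alone (257). Rescaling TPM without satellite-like models and mitochondrial genes, also chosen after seeing the data, raised the summed TPM of the neuroblast lists to 12562 and of the host lists to 3055. The number of genes at 1 TPM in every tumor (11217 to 12167 at that threshold) stayed within 1.5 times. The share of the 20 highest genes, 28.0% ± 18.5 (SD, n = 4), ran from 14.9% to 33.6%. It was lowest without satellite-like models and mitochondrial genes, and was 15.1% in tumors 1 and 2 alone. These shifts were smaller than the SD of 18.5. In the same settings the SD itself was only 2.43 and 0.28, so it is a weak measure of how stable the share is. In tumors 1 and 2 alone the log2 difference was marked as moved in 133 of 175 named genes. That count is no result, because a difference between the highest and lowest of fewer tumors can only shrink, apart from rescaling. Many of these genes were also named for wide differences. No paired analysis was possible because 1 group was described without a comparison. Depth limits genes with few reads, such as Adrb3.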
